A study of Homo sapiens with 9 samples.

Results

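Respiratory complex III hands electrons from ubiquinol to cytochrome c and moves protons across the inner mitochondrial membrane. The transcripts described here encode its nuclear subunits and its electron acceptor: UQCRB, UQCRC1, UQCRC2, UQCRFS1, UQCRH, UQCRQ, UQCR10, UQCR11, CYC1 and CYCS. They were chosen as every probe set that the array annotation gives to 1 of these 10 symbols alone. The rule used no measured value, but the genes were chosen with earlier results of these data known. It found 17 of the 54613 probe sets tested, covering 8 of the 10 genes. UQCRFS1 had no probe set under the rule, and the probe set listed for UQCRH carries more than 1 symbol, so neither transcript was analysed here.

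The arrays were hybridised with RNA of U2OS, a human osteosarcoma cell line. There were 3 groups of 3 arrays: cells given a non-targeting shRNA plasmid (shControl), and cells given a plasmid against BAP1, a nuclear deubiquitinase, with either of 2 hairpin sequences (shBAP1 #1 and shBAP1 #2). All groups shared lipid transfection, puromycin selection and a double thymidine block that holds cells where G1 meets S phase, so every level below is that of arrested cells. Whether replicates were separate cultures is not stated in the labels. The p-values therefore measure only the spread between these arrays, and that spread may be technical.

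Complex III is a dimer in which cytochrome b, encoded by mitochondrial DNA, the Rieske iron-sulfur protein UQCRFS1 and cytochrome c1 carry the electrons. The core proteins UQCRC1 and UQCRC2 form its large domain in the matrix, and the other nuclear subunits are small proteins around this catalytic part. Cytochrome c, encoded by CYCS, carries electrons onward to complex IV, and once released into the cytosol it starts the apoptosome that activates caspases. Nuclear genes of the respiratory chain are known to be controlled in part by the factors NRF1, YY1 and GABPA.

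Promoter sequence was available from RefSeq (GRCh38.p14) for 8 of the 10 genes, all but UQCRB and CYC1, in a window from 250 bases before to 50 after the annotated start. It was searched on both strands for GCGCANGC (NRF1), AANATGGC (YY1) and CCGGAAG (the ETS family, to which GABPA belongs), and no matches of different motifs overlapped. The NRF1 letters occurred in 5 of 8 windows and in 12% of the 35116 promoters in the table. The YY1 letters occurred in 3 of 8 against 6.58% of all, and the ETS letters in 3 of 8 against 10.3%. UQCRC1 and UQCR10 held both NRF1 and YY1 letters, CYCS held NRF1 letters at 2 places, and UQCRC2 held none of the 3 motifs. A shorter form of the YY1 letters, AAGATGG, did occur in UQCRC2, 9 to 15 bases after the start on the opposite strand. The stretches of these 4 genes are shown because UQCRC1, UQCRC2 and CYCS have the largest changes among the members and UQCR10 rose with shBAP1 #1 on both of its probe sets. They run 5′ to 3′ along the gene's own strand, with motif matches in capitals, at chr3:48609616-48609846 (minus strand, UQCRC1), chr16:21953161-21953390 (plus strand, UQCRC2), chr22:29767169-29767403 (plus strand, UQCR10) and chr7:25125231-25125460 (minus strand, CYCS).
UQCRC1: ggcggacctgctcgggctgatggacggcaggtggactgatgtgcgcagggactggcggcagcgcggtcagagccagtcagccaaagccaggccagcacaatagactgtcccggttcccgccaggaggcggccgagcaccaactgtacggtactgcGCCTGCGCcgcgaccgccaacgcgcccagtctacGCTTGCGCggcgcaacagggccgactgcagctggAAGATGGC
UQCRC2: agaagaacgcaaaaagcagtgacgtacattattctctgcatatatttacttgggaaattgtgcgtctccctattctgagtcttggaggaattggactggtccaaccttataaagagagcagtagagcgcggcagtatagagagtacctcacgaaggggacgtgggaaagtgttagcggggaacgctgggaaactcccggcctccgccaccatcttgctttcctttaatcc
UQCR10: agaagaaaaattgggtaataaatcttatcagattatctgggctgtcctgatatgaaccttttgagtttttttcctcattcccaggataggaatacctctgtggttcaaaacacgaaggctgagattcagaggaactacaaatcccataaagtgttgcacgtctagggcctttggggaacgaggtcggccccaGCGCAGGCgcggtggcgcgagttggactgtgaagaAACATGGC
CYCS: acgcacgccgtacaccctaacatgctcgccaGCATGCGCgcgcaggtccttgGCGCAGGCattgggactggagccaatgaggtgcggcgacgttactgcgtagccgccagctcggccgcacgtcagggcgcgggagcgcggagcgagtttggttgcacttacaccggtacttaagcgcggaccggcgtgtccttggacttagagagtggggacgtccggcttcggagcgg
The match nearest the start lay 4 to 11 bases before it in UQCRC1 and 1 to 8 bases before it in UQCR10, both NRF1 letters. The YY1 letters of these genes began 24 and 28 bases after the start. In CYCS the NRF1 letters ended 162 and 141 bases before the start. UQCR11 held a pair of NRF1 and a pair of ETS matches, UQCRFS1 held NRF1 and YY1 letters, and UQCRH and UQCRQ held ETS letters alone. A match describes letters in a window and is not a measured binding site.

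**Figure D1:**
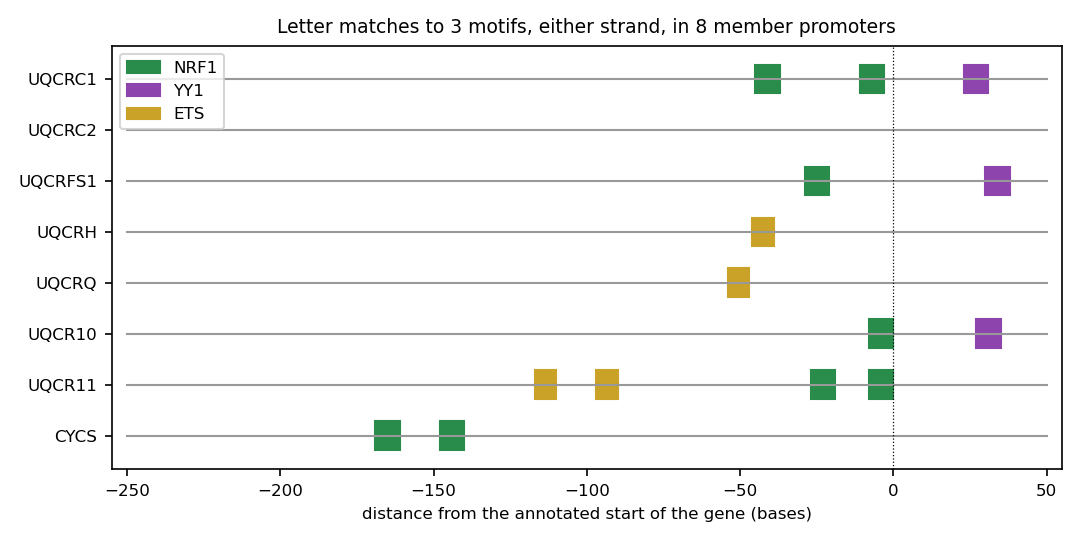
Positions of the NRF1, YY1 and ETS letter matches in the 8 promoter windows, with distance from the annotated start in bases on the horizontal axis and 1 line per gene. The NRF1 letters occur in 5 of 8 windows, and the UQCRC2 line has no match to these 3 (the shorter YY1 letters are not drawn).

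Values are log2 expression from robust multi-array averaging (RMA), which sets all arrays to the same distribution, so they show differences relative to the other transcripts on the array. A level cannot be compared between probe sets. A probe set was called changed when its Benjamini-Hochberg adjusted p over all probe sets, from limma, was below 0.05. Each gene is represented by its brightest probe set by mean over the 9 arrays. With shBAP1 #1, 7 of the 17 probe sets were called (3 higher, 4 lower), where 17.7% of all probe sets were called. With shBAP1 #2, 7 of 17 were called (2 higher, 5 lower), against 24.1% of all. The representative probe sets of the 8 genes had means of 11.06 to 13.14, above the median of 5.43 over all probe set means. The shares of all probe sets and genes given here and below include dim ones. Shares among equally bright ones were not computed.

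By gene, UQCRC1 and UQCR10 rose and UQCRC2 and CYCS fell with shBAP1 #1, that is 2 of 8 higher against 11.9% of the 19775 genes and 2 of 8 lower against 11.5%. With shBAP1 #2, UQCR11 rose (1 of 8 against 15.8%) and UQCRC2 and UQCRB fell (2 of 8 against 15.5%). The median change of the 8 genes was 0.053 with shBAP1 #1 and −0.046 with shBAP1 #2, where the medians of all genes were 0.0074 and 0.016. UQCRC2 was the 1 member lower with both shRNAs, against 4.85% of all genes, and 0 members were higher with both, against 5.56%. CYC1 and UQCRQ were called with neither. The group therefore held changes in both directions under each shRNA, with a median near that of all genes.

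**Figure D2:**
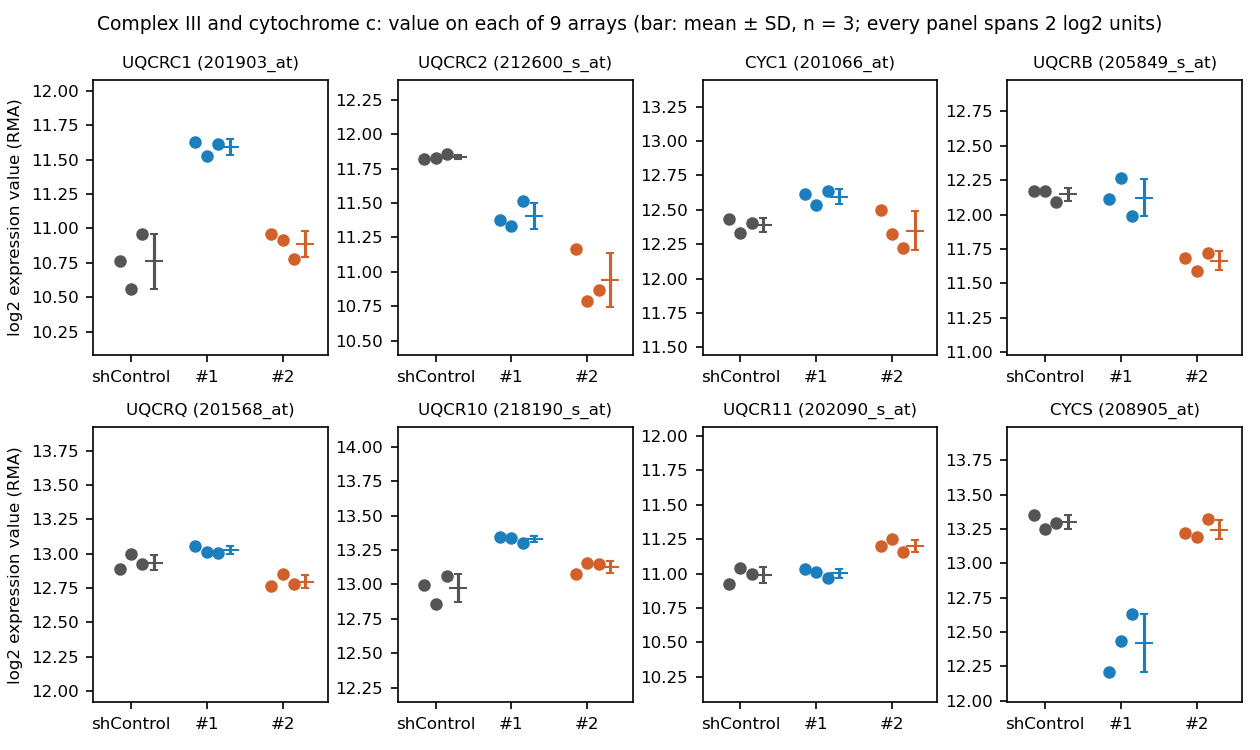
Log2 expression of the representative probe set of each of the 8 genes, 1 panel per gene, each spanning 2 log2 units, with 1 point per array and the mean ± SD of each group of 3 beside its points. CYCS is low on the 3 shBAP1 #1 arrays alone, UQCRC1 is high on these 3 alone, and UQCRC2 descends from shControl through shBAP1 #1 to shBAP1 #2.

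Among the core proteins, UQCRC1 rose with shBAP1 #1 alone. Its levels were 10.76, 10.56 and 10.96 on the shControl arrays, 11.63, 11.53 and 11.61 with shBAP1 #1, and 10.96, 10.92 and 10.78 with shBAP1 #2. Every shBAP1 #1 array lay above every other array, and the shBAP1 #2 arrays lay within the span of the controls. The change with shBAP1 #1 was 0.83 (SE 0.10, n = 3 per group, limma adjusted p = 0.000234), a 1.78-fold higher level. With shBAP1 #2 it was 0.13 (adjusted p = 0.451, 95% interval −0.096 to 0.35).

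UQCRC2, the partner of UQCRC1 in the matrix domain, fell with both shRNAs. Its brighter probe set read 11.82, 11.83 and 11.85 on the shControl arrays, 11.38, 11.33 and 11.51 with shBAP1 #1, and 11.17, 10.79 and 10.87 with shBAP1 #2. The 3 groups did not overlap. The level was 0.743 times that of shControl with shBAP1 #1 (log2 change −0.43, SE 0.098, adjusted p = 0.0108) and 0.538 times with shBAP1 #2 (−0.90, SE 0.098, adjusted p = 0.0001). In RNA of a whole culture, fewer cells with the transcript and less of it per cell cannot be told apart. A second bright probe set of UQCRC2 fell in the same way, by 0.48 (adjusted p = 0.0112) and by 0.93 (adjusted p = 0.000157). The third probe set is dim, below the median of 5.43 over all probe set means, and gave 0.20 (adjusted p = 0.464) and 0.34 (adjusted p = 0.135). Averaging all 3 probe sets left −0.23 for shBAP1 #1, with an adjusted p of 0.124.

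CYC1 encodes cytochrome c1, the haem protein that passes electrons to cytochrome c. It read 12.43, 12.33 and 12.40 on the shControl arrays, 12.61, 12.53 and 12.64 with shBAP1 #1, and 12.50, 12.32 and 12.22 with shBAP1 #2. The shBAP1 #1 arrays lay above the controls without overlap, yet the change of 0.21 (95% interval 0.028 to 0.39) did not pass the test (limma adjusted p = 0.119). With shBAP1 #2 the groups overlapped and the change was −0.04 (95% interval −0.22 to 0.14, adjusted p = 0.801).

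Among the small subunits, UQCRB, a protein close to the site where ubiquinone binds, read 12.18, 12.17 and 12.09 in shControl, 12.11, 12.26 and 11.99 with shBAP1 #1, and 11.68, 11.59 and 11.72 with shBAP1 #2. The shBAP1 #2 arrays lay below all others, and the shBAP1 #1 arrays overlapped the controls. UQCRB was 0.716 times its control level with shBAP1 #2 (−0.48, SE 0.081, adjusted p = 0.00134), and its change with shBAP1 #1 was −0.023 (95% interval −0.20 to 0.16, adjusted p = 0.913).

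The probe sets of UQCRB disagreed. The representative one and a second bright one both carry a suffix of shared probes, which can match other transcripts. That second one gave 0.028 with shBAP1 #1 and −0.45 with shBAP1 #2 (adjusted p = 0.00346). The brighter probe set with no such suffix read 8.12, 7.88 and 7.98 in shControl. It read 7.47, 7.63 and 7.69 with shBAP1 #1, and 7.76, 7.78 and 7.87 with shBAP1 #2. It fell by 0.39 with shBAP1 #1 (adjusted p = 0.00767), and its change with shBAP1 #2 was −0.19 (adjusted p = 0.145), so which shRNA lowers UQCRB depends on the probe set. The fourth, dim one gave −0.023 and −0.068. The representative probe sets of UQCRC2, UQCR10 and UQCR11 also carry a suffix of shared probes, and the other probe sets of these genes do not.

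UQCRQ, another small subunit, read 12.89, 13.00 and 12.92 in shControl, 13.06, 13.01 and 13.00 with shBAP1 #1, and 12.76, 12.85 and 12.78 with shBAP1 #2. The changes were 0.09 (95% interval −0.05 to 0.23, adjusted p = 0.435) and −0.14 (95% interval −0.28 to 0.003, adjusted p = 0.161). The arrays of each shRNA lay to 1 side of the controls, and neither change passed the test.

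UQCR10, the small subunit next to cytochrome c1, read 12.99, 12.86 and 13.06 in shControl, 13.35, 13.33 and 13.30 with shBAP1 #1, and 13.08, 13.15 and 13.15 with shBAP1 #2. Both shRNA groups lay above all controls. It rose 1.28-fold with shBAP1 #1 (0.36, SE 0.070, adjusted p = 0.00477), and its change with shBAP1 #2 was 0.15 (95% interval −0.0017 to 0.31, adjusted p = 0.156). A second, less bright probe set read 8.31, 8.32 and 8.27 in shControl, 8.63, 8.69 and 8.52 with shBAP1 #1, and 8.54, 8.73 and 8.68 with shBAP1 #2. There UQCR10 rose with both shRNAs, by 0.32 (adjusted p = 0.0132) and 0.35 (adjusted p = 0.00548). Without shBAP1 #1 replicate 2, the first of these was 0.28 with an adjusted p of 0.0569.

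UQCR11, the smallest subunit of the complex, read 10.92, 11.04 and 11.00 in shControl, 11.03, 11.01 and 10.97 with shBAP1 #1, and 11.20, 11.25 and 11.16 with shBAP1 #2. The shBAP1 #2 arrays lay above all others. It rose by 0.22 with shBAP1 #2 (SE 0.064, adjusted p = 0.0317), and its change with shBAP1 #1 was 0.016 (adjusted p = 0.924). The call was lost without shControl replicate 1 (0.18, adjusted p = 0.118), shControl replicate 3, shBAP1 #2 replicate 1 or shBAP1 #2 replicate 2. A second probe set of UQCR11 gave −0.11 (adjusted p = 0.454) and 0.047 (adjusted p = 0.751), and averaging both left 0.13 with shBAP1 #2 (adjusted p = 0.115).

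CYCS, the mobile carrier, fell with shBAP1 #1. Its bright probe set read 13.35, 13.25 and 13.29 in shControl, 12.21, 12.43 and 12.63 with shBAP1 #1, and 13.22, 13.19 and 13.32 with shBAP1 #2. Every shBAP1 #1 array lay below the other 6, which overlapped one another. The level was 0.545 times that of shControl with shBAP1 #1 (−0.87, SE 0.099, adjusted p = 0.000163), and the change with shBAP1 #2 was −0.053 (95% interval −0.27 to 0.17, adjusted p = 0.781).

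Both other probe sets of CYCS are dim and did not show this pattern. One gave −0.44 with shBAP1 #1 (adjusted p = 0.0826) and −0.49 with shBAP1 #2 (adjusted p = 0.0415). The latter call held without shControl replicate 2 or shBAP1 #2 replicate 1 and was lost when any of the other 7 arrays was left out (highest adjusted p = 0.16). The last one gave 0.096 and −0.19 (adjusted p = 0.169 for shBAP1 #2). Averaging the 3 probe sets gave −0.24 for CYCS with shBAP1 #2 (adjusted p = 0.0466) and left a difference between the shRNAs of 0.16 (adjusted p = 0.178).

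**Figure D3:**
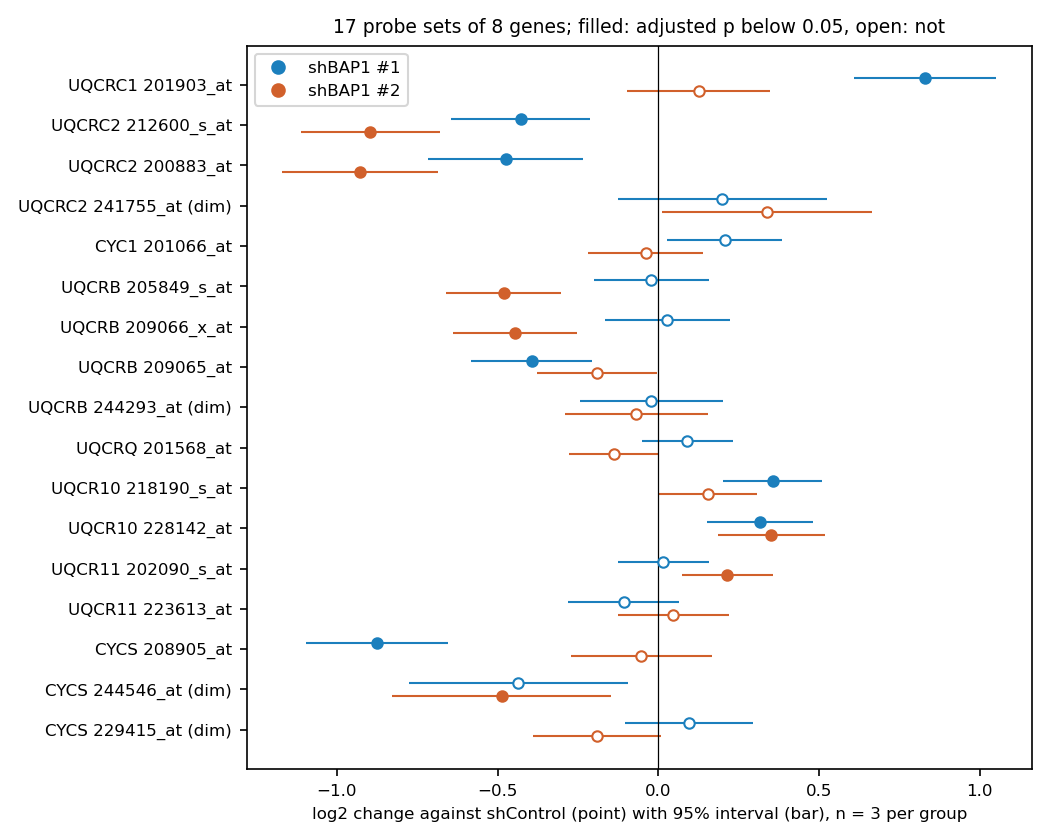
Log2 change of each member probe set against shControl, with 95% confidence intervals from limma, for shBAP1 #1 and shBAP1 #2. The bright probe sets of CYCS and UQCRC1 stand far from 0 with shBAP1 #1 and near 0 with shBAP1 #2, and the bright probe sets of UQCRC2 stand below 0 with both.

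The shRNAs were also compared with each other directly. Here 10 of the 17 probe sets differed (2 higher and 8 lower with shBAP1 #2), where 25.5% of all probe sets did. By gene, 7 of 8 differed (2 higher and 5 lower with shBAP1 #2), where 32.6% of genes did. The median difference of the 8 genes was −0.24, where that of all genes was 0.0057. All 8 genes were read on bright probe sets, and a share among equally bright genes was not computed. CYCS was higher with shBAP1 #2 than with shBAP1 #1 by 0.82 (adjusted p = 0.000139). A dim probe set of CYCS was called the other way, at −0.29 (adjusted p = 0.038), a call that held without shBAP1 #1 replicate 1 or shBAP1 #2 replicate 2 and was lost when any of the other 7 arrays was left out (up to 0.143). UQCRC1 was lower by 0.70 (adjusted p = 0.000396), UQCRC2 by 0.47 (adjusted p = 0.00449) and UQCRB by 0.46 (adjusted p = 0.00157). With the probe sets of UQCRC2 averaged, its difference was −0.26 and no longer called (adjusted p = 0.0688). The brighter UQCRB probe set without a shared-probe suffix gave 0.20 in the other direction (adjusted p = 0.111).

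The differences of the remaining members were smaller. UQCRQ was lower with shBAP1 #2 by 0.23 (adjusted p = 0.0217), a call lost without shBAP1 #1 replicate 1 or 2 or shBAP1 #2 replicate 1 or 3 (up to 0.0762). CYC1 was lower by 0.25 (adjusted p = 0.0467), and this held only without shBAP1 #2 replicate 1 when single arrays were left out (up to 0.17). It was also lost with each array centred on its median (0.0579). UQCR11 was higher by 0.20 (adjusted p = 0.0423), which held only without shControl replicate 2 (up to 0.128). UQCR10 gave −0.20 and was not called (adjusted p = 0.0587). In other limma settings it was called: with dim probe sets left out (0.0375), with 1 probe set per gene (0.0418) and with an intensity trend and robust prior (0.0117).

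Averaged over both shRNAs and set against shControl, 9 of the 17 probe sets were called (3 higher, 6 lower), where 19.9% of all were. By gene, 2 rose and 3 fell, that is 5 of 8 where 26.4% of genes were called, and the median change of the 8 genes was 0.03, where that of all genes was 0.012. This mean joins shRNA groups that differ from each other in 7 of the 8 genes.

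Genes with the profiles most like 3 members were found by the root mean square difference over the 9 arrays, after each profile was centred on its shControl mean. For CYCS these were EXOSC3, an RNA exosome subunit (difference 0.052), SDHD, a membrane anchor of succinate dehydrogenase (0.054), and COPS5, a subunit of the COP9 signalosome (0.070). Their changes with shBAP1 #1 were −0.83, −0.89 and −0.91, and with shBAP1 #2 −0.082, −0.049 and −0.072. For UQCRC2 the nearest were ZCCHC17 (0.038), the adenylate kinase AK1 (0.053) and the gamma-secretase subunit NCSTN (0.068). For CYC1, whose own changes were small, they were SH3BGRL2 (0.040), the kinase gene MAPK7 (0.051) and DELE1 (0.052).

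The 12 lists of genes around the complex were read beside the members. Over all of them, 143 of 155 genes were measured, of which 22 rose (15.4%) and 28 fell (19.6%) with shBAP1 #1, where 11.9% and 11.5% of all genes did. With shBAP1 #2, 26 rose (18.2%) and 34 fell (23.8%), where 15.8% and 15.5% of all genes did. Their median changes were 0.0031 and −0.011. In all, 11 genes rose with both shRNAs (7.69%, against 5.56% of all genes) and 10 fell with both (6.99%, against 4.85%). The shRNAs differed in 71 list genes (49.7%, against 32.6%), and 5 of the 143 were called in opposite directions, against 2.95% of all genes. These shares carry no test, and the shares of all genes apply to the counts of each list below.

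A list of 10 genes serves the assembly of complex III and the attachment of haem to its cytochromes. With shBAP1 #1, 1 rose and 3 fell, where 11.9% and 11.5% of all genes did. With shBAP1 #2, 4 rose and 1 fell, where 15.8% and 15.5% of all genes did. HCCS, the enzyme that attaches haem to cytochrome c and cytochrome c1, fell with both, by 0.88 (SE 0.072, adjusted p = 3.13e-05) and by 0.52 (adjusted p = 0.000407). Another HCCS probe set, without a shared-probe suffix, gave −0.069 with shBAP1 #2 (adjusted p = 0.567). TTC19, which clears fragments of the Rieske protein, rose by 0.30 and 0.47, the first call being lost when any shControl array or shBAP1 #1 replicate 1 or 2 was left out (adjusted p up to 0.12). COX7A2L, which joins complexes III and IV into supercomplexes, rose by 0.33 and 0.30. Its call with shBAP1 #1 was lost without shControl replicate 1 or shBAP1 #1 replicate 2 (up to 0.0599), and with shBAP1 #2 without shControl replicate 1 or 3 or shBAP1 #2 replicate 2 or 3 (up to 0.0731).

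The mitochondrial processing peptidase is related to the core proteins. PMPCA gave −0.12 with shBAP1 #1 (adjusted p = 0.254) and rose by 0.27 with shBAP1 #2 (adjusted p = 0.00897), and PMPCB gave −0.048 and −0.049.

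Coenzyme Q is the substrate of complex III. Of 13 genes of its synthesis, 2 rose and 4 fell with shBAP1 #1, where 11.9% and 11.5% of all genes did. With shBAP1 #2, 2 rose and 7 fell, where 15.8% and 15.5% of all genes did. The medians of the list were −0.17 and −0.29. COQ2, which joins the ring to the isoprenoid tail, fell by 0.94 and 1.00 (adjusted p = 0.000337 and 0.000177), and COQ4 fell by 0.39 and 0.48. With the probe sets of COQ4 averaged, its change with shBAP1 #1 was −0.082 (adjusted p = 0.309). COQ10B, a coenzyme Q binding protein, rose by 0.92 and 1.10 (adjusted p = 0.000242 and 7.01e-05). COQ6, a ring hydroxylase, rose by 0.79 with shBAP1 #1 and by 0.35 with shBAP1 #2, and the latter call held only without shControl replicate 3 or shBAP1 #1 replicate 3 (up to 0.127) and was lost with median-centred arrays (0.0573). Of 11 measured genes that feed electrons to coenzyme Q, 1 rose and 3 fell, and 2 rose and 3 fell. ETFB, a subunit of the electron transfer flavoprotein, fell by 0.49 and 0.42.

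Haem and iron-sulfur clusters are the cofactors of the complex. Of 10 measured genes of haem synthesis, 2 rose and 2 fell with shBAP1 #1, where 11.9% and 11.5% of all genes did. With shBAP1 #2, 1 rose and 4 fell, where 15.8% and 15.5% of all genes did. FECH, which inserts the iron that completes haem, gave 0.31 (adjusted p = 0.0566) and rose by 0.94 (adjusted p = 8.9e-05). Its change with shBAP1 #1 was called by limma with dim probe sets left out (0.0378) or with 1 probe set per gene (0.0409). ALAS1, the first enzyme of the pathway, gave −0.31 (adjusted p = 0.0936) and fell by 0.82 (adjusted p = 0.000373). The probe sets of FECH and ALAS1 both carry a shared-probe suffix. Of 12 measured genes of iron-sulfur cluster assembly, 1 rose and 3 fell, and 1 rose and 2 fell. NFU1, a late-acting cluster carrier, fell by 1.03 with shBAP1 #1 (adjusted p = 6.78e-05) and gave −0.10 with shBAP1 #2. FDX2, the ferredoxin of cluster assembly, gave −0.22 (adjusted p = 0.061) and rose by 0.86 (adjusted p = 2.66e-05). Its fall with shBAP1 #1 was called by limma with dim probe sets left out (0.0383) or probe sets averaged (0.0296). The same held with 1 probe set per gene (0.0421) or shared-probe suffixes left out (0.0482).

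Of 7 measured genes of cytochrome c release and the apoptosome, 3 rose and 2 fell with shBAP1 #1 (all genes: 11.9% and 11.5%). With shBAP1 #2, 3 rose and 1 fell (all genes: 15.8% and 15.5%). BAK1, which opens the outer membrane, rose by 0.62 and 0.86 (adjusted p = 0.00227 and 0.000233), and DIABLO, released together with cytochrome c, rose by 0.26 and 0.26. BAX, which also opens the outer membrane, fell by 0.70 (adjusted p = 0.0356) and 0.63 (adjusted p = 0.0443). The probe sets of BAX and DIABLO both carry a shared-probe suffix. The BAX calls rest on single arrays: each was lost without shControl replicate 1 or 3 or shBAP1 #2 replicate 3, the first also without shBAP1 #1 replicate 1 and the second also without shBAP1 #2 replicate 1 or 2 (up to 0.131 and 0.15).

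Of 13 regulators of respiratory genes, 0 rose and 4 fell with shBAP1 #1 (all genes: 11.9% and 11.5%). With shBAP1 #2, 2 rose and 4 fell (all genes: 15.8% and 15.5%). The list has medians of −0.14 and −0.072. GABPA fell by 0.30 (adjusted p = 0.0393) and 0.61 (adjusted p = 0.000528), and NRF1 fell by 0.28 (adjusted p = 0.0323) and 0.32 (adjusted p = 0.0123). Both calls with shBAP1 #1 were lost without shControl replicate 1 or 3 or shBAP1 #1 replicate 1, that of GABPA also without shBAP1 #1 replicate 3 and that of NRF1 also without shBAP1 #1 replicate 2 (up to 0.133 and 0.128). The NRF1 call with shBAP1 #2 was lost without shControl replicate 1 (0.0532). The NRF1 probe set without a shared-probe suffix gave −0.18 (adjusted p = 0.225) and −0.25 (adjusted p = 0.0677), neither called. With probe sets averaged, the changes with shBAP1 #1 were −0.16 for GABPA (adjusted p = 0.149) and −0.17 for NRF1 (adjusted p = 0.0667). YY1, which the naming rule did not pick, fell by 0.22 with shBAP1 #1 (limma adjusted p = 0.0489) and gave −0.13 with shBAP1 #2 (adjusted p = 0.238). Its probe set carries a shared-probe suffix, and its dependence on single arrays was not examined. These are transcript levels of the factors, and the promoter letters shown above were not tested against them.

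Among the neighbouring complexes, of 33 measured complex I subunits, 7 rose and 5 fell with shBAP1 #1 (all genes: 11.9% and 11.5%). With shBAP1 #2, 8 rose and 7 fell (all genes: 15.8% and 15.5%). NDUFA1 rose by 0.87 and 0.71, NDUFAB1 rose by 0.50 and 0.34, and NDUFV2 fell by 0.64 and 0.30. The second NDUFV2 call was lost without shControl replicate 1 or 3 or shBAP1 #2 replicate 2 or 3 (up to 0.0891). NDUFA10 rose by 0.25 and 0.52, but with all its probe sets averaged neither change was called. Its call with shBAP1 #1 was also lost without shControl replicate 1 or 2 or shBAP1 #1 replicate 3 (up to 0.0692). Of 11 measured complex IV subunits, 3 rose and 1 fell with shBAP1 #1, and 0 rose and 1 fell with shBAP1 #2. COX7C, a small subunit of complex IV, fell by 1.79 and 0.77 on a probe set whose probes can match other transcripts. Of 18 ATP synthase subunits, 1 rose and 1 fell, and 1 rose and 4 fell. ATP5MG rose by 0.31 and 0.28, also on a probe set whose probes can match other transcripts.

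**Figure D4:**
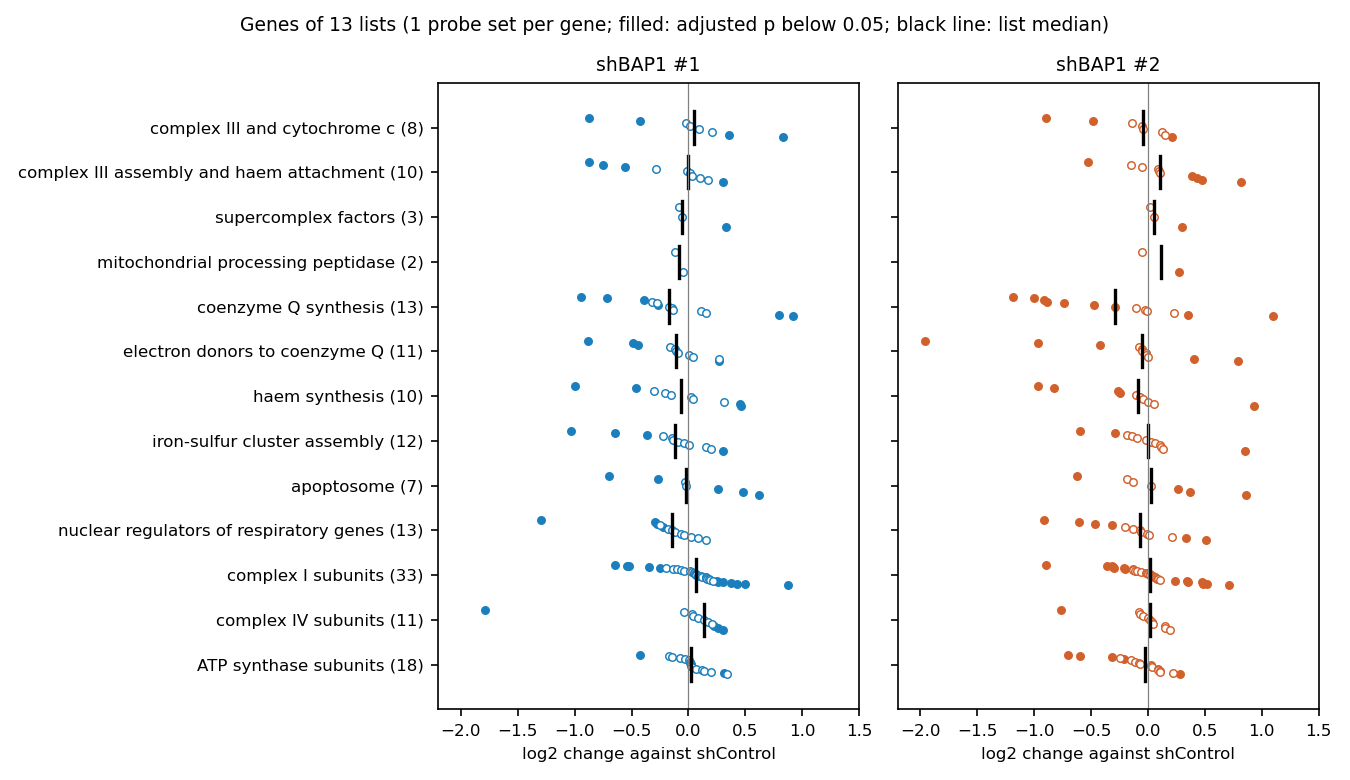
Log2 change against shControl of every measured gene in the member group and the 12 lists, 1 point per gene, with shBAP1 #1 in 1 panel and shBAP1 #2 in the other and filled points for genes called by limma. The lists spread to both sides of 0, and the medians of the coenzyme Q synthesis list are −0.17 and −0.29.

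Several facts of the whole series stand beside these results. No probe set is assigned to BAP1 alone in the annotation. The level of BAP1 was therefore not analysed here, and the group labels have no check from it. All 4 measured leukocyte markers and 4 of 5 endothelial markers lay below 5.43 on every array. All 4 mesenchymal markers and 4 of 8 osteoblast lineage markers lay above it on every array, while the osteoblast factor SP7 and the collagen gene COL1A2 lay below it. Of 6 epithelial markers, 4 lay above it on every array. The mean level of all 6 was 7.39 to 7.50 on the shControl arrays, 7.01 to 7.05 with shBAP1 #1 and 6.95 to 7.02 with shBAP1 #2. The mesenchymal mean was 10.58 to 10.84, 10.99 to 11.18 and 10.59 to 10.66 in the same order, and the osteoblast lineage mean was 7.33 to 7.39, 7.35 to 7.48 and 7.68 to 7.87. Among single markers, PECAM1, the 1 endothelial gene above 5.43, had group means of 7.78, 6.95 and 7.05, and SPP1 of the osteoblast list had 9.32, 6.78 and 11.26. The difference between 3′ and 5′ actin probe sets, a measure of RNA integrity, was 0.47 to 0.51 in shControl, 0.39 to 0.41 with shBAP1 #1 and 0.39 to 0.46 with shBAP1 #2. Among the shBAP1 #2 arrays, replicate 1 was closer to the controls, with a mean correlation of 0.989 across probe sets against 0.981 for both others. Without it the UQCRC2 change with shBAP1 #2 was −1.01. The part of these markers and of the actin difference in the members' changes was not tested.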

How the data were processed

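RNA of 9 U2OS samples, 3 per group, was measured on 1-colour expression arrays. The authors deposited 1 log2 value for each probe set and array, made with RMA (background correction, quantile normalisation and probe summary), which removes a shift of all transcripts in 1 direction and compresses changes of dim probe sets. RMA is named per the submitters' processing notes, with its version not given in the sources used here. The number of arrays limits the precision. Names came from the annotation of the array platform, in which 41097 probe sets had 1 symbol, 1801 several and 11777 none listed. Of these symbols, 41043 were found in a GRCh38.p14 gene table and 0 were updated. After 62 control probe sets were left out, 54613 were fitted by lmFit and eBayes of limma 3.58.1 (R 4.3.3, 3 groups, no covariates, two-sided, 6 residual and 4.37 prior degrees of freedom), with Benjamini-Hochberg adjustment over all of them and calls below 0.05. The code was first tested on simulated data.

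Samples were grouped by their titles. The members, the gene lists, the tests and the alternatives were chosen with earlier results of these data known. Genes named from the lists were up to 4 per list called the same way by both shRNAs, by the largest change averaged over both, or else the 2 with the smallest unadjusted p for that average. For CYC1, CYCS and UQCRC2, the 3 genes with the nearest profiles were named. Comparisons with shControl share its 3 arrays. Same-numbered replicates correlated in their deviations from group means at −0.17 to 0.30 over 9 pairs (median 0.0719). Replicates with other numbers did so at −0.28 to 0.19 over 18 pairs (median −0.0535). The numbers were not used as pairs in the main fit. No 2 arrays held identical values. Figures used matplotlib 3.10.9 and Python 3.11.15.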

Additional observations from a re-analysis of the deposited data

Results flagged for a closer look

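The shRNAs differed from each other, by the direct limma comparison of shBAP1 #2 minus shBAP1 #1, in 7 of the 8 members: CYCS (0.82), UQCRC1 (−0.70), UQCRC2 (−0.47), UQCRB (−0.46), CYC1 (−0.25), UQCRQ (−0.23) and UQCR11 (0.20). Of the 25 genes named from the lists, 11 differed in the same test, where 32.6% of all genes did. The 25 genes were picked by their changes in these same data, so their share is not comparable with that of all genes. Higher with shBAP1 #2 were FDX2 (1.08), COX7C (1.02), NFU1 (0.93), FECH (0.62), PMPCA (0.39), HCCS (0.35), NDUFV2 (0.34) and NDUFA10 (0.27). Lower were ALAS1 (−0.52), COQ6 (−0.44) and GABPA (−0.31). The calls for GABPA and NDUFV2 were lost when certain single arrays were left out, that of GABPA without shBAP1 #1 replicate 2 or shBAP1 #2 replicate 2 and that of NDUFV2 without shBAP1 #1 replicate 1. With its probe sets averaged, the GABPA difference was −0.095 (adjusted p = 0.357).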

How the results depend on the processing

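Calls for the changes of CYCS and UQCRC1 with shBAP1 #1, of UQCRC2 with both shRNAs and of UQCRB with shBAP1 #2 held when any 1 array was left out. Over these fits, 4 member genes were called with shBAP1 #1 each time, 2 to 3 with shBAP1 #2, 4 to 7 between the shRNAs and 3 to 5 for the mean of both, against 4, 3, 7 and 5 with all arrays. Between the shRNAs, 6 to 9 member probe sets were called, against 10, and the list genes changed the same way by both numbered 12 to 22, against 21. In the alternatives that kept all arrays, 5 to 8 member genes were called between the shRNAs. Averaging all probe sets of a gene, leaving out shared-probe suffixes, and an intensity trend with a robust prior each gave 2 members changed the same way by both shRNAs, against 1. These were not always the same genes. With averaging, UQCRC2 lost its call with shBAP1 #1 (−0.23, adjusted p = 0.124). UQCR10 (0.25, adjusted p = 0.00659) and CYCS (−0.24, adjusted p = 0.0466) then gained calls with shBAP1 #2. The trend also gave 5 member genes called with shBAP1 #2. Without shared-probe suffixes another probe set stands for UQCRB. There its call with shBAP1 #2 was lost (−0.19, adjusted p = 0.122), and its difference between the shRNAs turned to 0.20 (adjusted p = 0.0936). NDUFA10 turned to −0.026 with shBAP1 #1 when its probe sets were averaged (adjusted p = 0.837). The cause of the other changes was not tested. With the replicate number as a block, 7 member probe sets were called with shBAP1 #1 and 6 with shBAP1 #2, and the calls for UQCR11 with shBAP1 #2 (adjusted p = 0.0507), its difference between the shRNAs (0.0646), GABPA with shBAP1 #1 (0.0583) and BAX with shBAP1 #2 (0.0534) were lost. The shorter YY1 letters AAGATGG occurred in 2 of 8 promoters, those of UQCRC1 and UQCRC2, and in 5.84% of all. Dim probe sets are compressed by RMA, and 4 of the 17 lay below the median.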

Other observations

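Among the 143 measured genes of the lists, 5 were called in opposite directions by the shRNAs, and they were singled out after their values were seen. This count depends on the setting: FDX2 also gained a call with shBAP1 #1 when dim probe sets were left out. UQCC6, an assembly factor of complex III, fell by 0.75 with shBAP1 #1 (SE 0.086, limma adjusted p = 0.000183) and rose by 0.82 with shBAP1 #2 (adjusted p = 8.35e-05). NDUFS4, a subunit of complex I, fell by 0.54 and rose by 0.48. UROS, an enzyme of haem synthesis, rose by 0.45 and fell by 0.97. NDUFA2, another complex I subunit, rose by 0.30 and fell by 0.36, and GLRX5, a carrier of iron-sulfur clusters, rose by 0.30 and fell by 0.29.

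Within arrays, the log2 level of UQCRC1 minus that of UQCRC2, less its shControl mean, was 0.014, −0.20 and 0.18 on the shControl arrays. It was 1.33, 1.27 and 1.17 with shBAP1 #1 and 0.87, 1.21 and 0.99 with shBAP1 #2, so the arrays of both shRNAs lay above the controls. This ratio was also chosen after the values were seen and carries no test. TFAM, which maintains and transcribes mitochondrial DNA, fell by 1.30 with shBAP1 #1 (SE 0.11, limma adjusted p = 4.31e-05) and gave −0.058 with shBAP1 #2 (adjusted p = 0.792). Both values come from a probe set whose probes can match other transcripts. TFAM too was singled out after its values were seen.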
